A study of Mus musculus with 16 samples.

Results

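Newly made RNA was compared between the 129 copy and the Mus musculus castaneus (cast) copy of the same gene, library by library, in F121-9 mouse embryonic stem cells, which are hybrid and hold both. The comparison used 5 of the 16 libraries of a study on DNA elements that control when and where DNA replicates: 680kinv.B10, 100kdel.C3, 245kdel.F9 and the F121-9 replicates R1 and R2. By their names the first 3 carry edits and F121-9 is the line they derive from, but the labels do not spell out the edits, the suffixes or the cross that gave the hybrid, and each edited name has 1 library. Cells of all 5 libraries were cas/129 hybrids grown in 2i and LIF, a medium that holds stem cells in the naive state, and were given 2 mM bromouridine for 30 min. Labelled RNA was captured with an antibody and sequenced strand by strand (Bru-seq), so introns count as much as exons. In these 5 libraries both copies of every autosome, and of chromosome X, were read in comparable amounts. Of 23825 autosomal gene symbols, 10923 had a mean of at least 1 CPM over both copies and the 5 libraries and were tested, and 12902 fell below that level. CPM are counts per 1000000 counts of that copy over all gene lines. There are 42497 lines for 24984 symbols, so 1 read can enter that total more than once. Genes at 48.1 to 48.7 Mb of chromosome 16 were left out. The labels do not say that the libraries came from separate cultures, and all derive from 1 hybrid line, so the p-values speak only of the spread among these libraries.

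In a hybrid cell with 1 copy from each parent, both copies of a gene sit in the same nucleus and meet the same transcription factors. They then differ in output through what is carried on each copy: its DNA sequence, or marks such as DNA methylation that were set on it earlier. A gain or loss of part of a chromosome would also make copies differ, and was not tested. Imprinted genes are the classic case of the marks, since they are read from the copy of 1 parent. Nascent RNA is read before most splicing and decay, which keeps the comparison close to transcription itself.

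The libraries held 8.60 M to 21.4 M allele-assigned reads (M, 1000000 reads) over 1 line per symbol, both copies added. In each of the 5, counted over all lines, cast reads came to 89.6 to 90.3% of the 129 reads. The deposited values remove this shortfall on average, by setting every column to the same total. A shortfall of cast reads at single genes, from mapping or assignment at SNPs, would stay in the differences and was not tested. After that scaling the median gene differed between copies by -0.02 to -0.01 on the log2 scale, and no chromosome had a median further from 0 than 0.09. Chromosome X took 3.21 to 4.10% of the 129 CPM and 3.49 to 4.17% of the cast CPM in the 5, whereas in each of the other 11 libraries 1 copy of X took at most 0.673%. Of those 11, 4 had at least 1 autosome whose median lay more than 0.5 from 0, and the other 7 had none. Marker genes of stem cells were present: all 10 were at 1 CPM or above, with a summed level of 1613 to 1915 CPM. Markers of other cell types were lower, with 5 of 10 primitive endoderm markers at 1 CPM or above (summed level 80.0 to 155 CPM), 4 of 6 neural markers (27.1 to 63.9 CPM), 1 of 6 mesoderm markers (0.985 to 5.31 CPM) and 1 of 8 fibroblast markers, Fn1, which carried nearly all of that list's 279 to 363 CPM. Foxa2, Lum, Neurog2 and Mesp1 were at 0 reads in all 5.

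A difference between copies was common. With limma on log2(CPM + 0.1), with library as a block so that the copies of a library stay paired, 4612 genes passed an adjusted p of 0.05, which is 42.2% of the genes tested. 129 was higher for 2285 genes (20.9%) and cast was higher for 2327 (21.3%). The scaling of each column to the same total sets this balance, so it is no measure of the total output of a copy. Most of these differences were small. Of the called genes 70.6% differed by less than 2-fold, with a median absolute difference of 0.59 on the log2 scale, and 50.8% of all tested genes had copies within 1.2-fold of each other. At 2-fold or more, 755 genes were called with 129 higher (6.91% of those tested) and 599 with cast higher (5.48%). At 4-fold or more these counts were 245 for 129 and 174 for cast, and at 8-fold or more 100 for 129 and 61 for cast. Of the called genes, 4177 (90.6%) went the same way in all 5 libraries, against 4968 (45.5%) of the tested genes. The calls rest on these same 5 differences, so the larger share among called genes follows from how they were chosen. For 850 genes (7.78%) every 129 value lay above every cast value, and for 750 genes (6.87%) every cast value lay above every 129 value. Without the pairing by library 1884 genes passed, all of them among the 4612. In bulk cells, fewer cells that read a copy and less RNA from it per cell cannot be told apart.

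**Figure D1:**
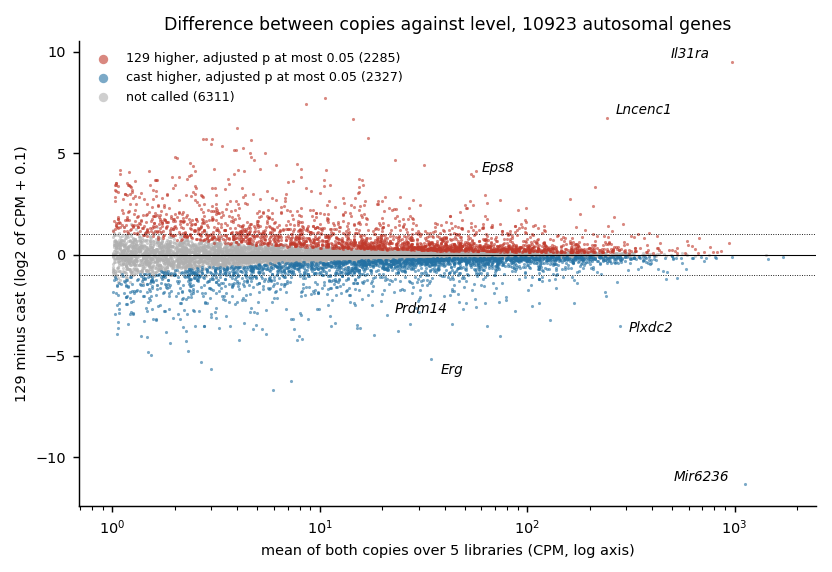
Each point is 1 of 10923 genes, with its mean CPM over both copies and 5 libraries on a log axis and the mean 129 minus cast difference (log2 of CPM + 0.1) upright; red and blue points passed an adjusted p of 0.05 and dotted lines mark 2-fold. Called genes lie on both sides, 2285 with 129 higher and 2327 with cast higher. Il31ra, Lncenc1, Erg and Mir6236 stand far from 0, the last a short line of uncertain value.

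The widest gap in favour of 129, among the genes named by rule, was at Il31ra, which encodes a receptor subunit for the cytokine IL-31. The 129 copy had 2104, 1127, 1519.5, 1533 and 3384 CPM in 680kinv, 100kdel, 245kdel and F121-9 replicates 1 and 2, and the cast copy had 2.86, 1.49, 2.85, 1.51 and 4.11 CPM in the same libraries. Every 129 value lay above every cast value, by a log2 difference of 9.50 (SE 0.09, adjusted p = 1.77e-17). The mean level of 129 was 755 times that of cast. Il31ra covers chr13:112522807-112580662 on the minus strand. Its neighbour Il6st, on the plus strand at chr13:112464070-112506860, encodes the shared receptor subunit gp130 through which LIF acts. Il6st had 199.9, 193, 187, 188 and 213 CPM on 129 and 171, 179, 169, 149 and 167 CPM on cast, a difference of 0.23 (SE 0.04, adjusted p = 0.00059). Its copies did not overlap either, but 129 exceeded cast only 1.18-fold.

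Next by that rule came Lncenc1, a long noncoding RNA of naive stem cells. Its 129 copy had 354, 679, 644, 338 and 383 CPM in 680kinv, 100kdel, 245kdel and F121-9 replicates 1 and 2, and its cast copy had 3.41, 9.54, 8.55, 1.55 and 3.01 CPM. The copies did not overlap, and the difference was 6.73 (SE 0.16, adjusted p = 9.26e-13).

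Among the genes named by rule the widest gap in favour of cast was at Erg, an ETS family transcription factor of endothelium and blood stem cells. Its 129 copy had 0.889, 2.28, 0.986, 1.75 and 4.23 CPM and its cast copy 55.6, 93.0, 75.7, 49.0 and 61.1 CPM, in the same order of libraries, and the copies did not overlap. The difference was -5.16 (SE 0.25, adjusted p = 6.54e-10). Slc1a3, a glutamate transporter of glia, had 14.3, 5.73, 4.83, 8.48 and 13.5 CPM on 129 and 159, 136, 120.4, 138 and 139 CPM on cast, a difference of -4.00 (SE 0.15, adjusted p = 9.22e-11). Again no 129 value reached any cast value.

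The DNA at the start of these 4 genes is shown because each was read mainly from 1 copy. The windows run from 250 bases before to 50 bases after the RefSeq start site, 5′ to 3′ on the gene's own strand, in GRCm38.p6, which is the sequence of C57BL/6J and so of neither copy. Capitals mark CG pairs, the sites where mammalian DNA is methylated; a CG pair reads the same on both strands.
Lncenc1: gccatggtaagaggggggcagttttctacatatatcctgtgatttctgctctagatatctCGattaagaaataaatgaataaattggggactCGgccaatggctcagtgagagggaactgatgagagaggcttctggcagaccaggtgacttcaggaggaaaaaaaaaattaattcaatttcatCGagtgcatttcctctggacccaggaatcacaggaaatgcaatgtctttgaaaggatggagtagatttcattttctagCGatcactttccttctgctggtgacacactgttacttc
Il31ra: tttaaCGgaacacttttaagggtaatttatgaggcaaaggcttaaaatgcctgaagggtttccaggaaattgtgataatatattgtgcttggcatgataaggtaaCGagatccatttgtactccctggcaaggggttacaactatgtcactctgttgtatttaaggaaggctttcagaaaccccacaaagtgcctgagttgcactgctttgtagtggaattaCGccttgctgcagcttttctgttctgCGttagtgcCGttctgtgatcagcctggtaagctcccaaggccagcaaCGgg
Erg: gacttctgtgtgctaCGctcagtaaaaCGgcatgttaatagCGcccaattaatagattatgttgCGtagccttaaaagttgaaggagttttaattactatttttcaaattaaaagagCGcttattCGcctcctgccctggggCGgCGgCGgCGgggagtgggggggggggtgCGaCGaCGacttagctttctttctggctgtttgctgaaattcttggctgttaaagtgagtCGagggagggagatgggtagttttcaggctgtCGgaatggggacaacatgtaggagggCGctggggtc
Slc1a3: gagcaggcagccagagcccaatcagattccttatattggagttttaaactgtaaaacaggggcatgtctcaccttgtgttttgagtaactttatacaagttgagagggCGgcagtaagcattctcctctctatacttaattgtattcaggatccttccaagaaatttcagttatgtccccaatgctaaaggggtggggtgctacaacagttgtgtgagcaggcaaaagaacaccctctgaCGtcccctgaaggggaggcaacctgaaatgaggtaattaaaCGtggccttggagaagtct
The windows lie at chr13:97434720-97435019 (plus strand) for Lncenc1, chr13:112580613-112580912 (minus) for Il31ra, chr16:95586544-95586843 (minus) for Erg and chr15:8710758-8711057 (minus) for Slc1a3. Lncenc1 has 4 CG pairs, a number that 38.1% of the 32817 promoters of this length in the RefSeq table do not exceed. Il31ra has 6 (47.9% of promoters have as few), Erg has 16 (68.6%) and Slc1a3 has 3 (31.4%), against a median of 7. The table held a promoter for 78.1% of tested genes, so promoter sequence was not compared between sets of genes.

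**Figure D2:**
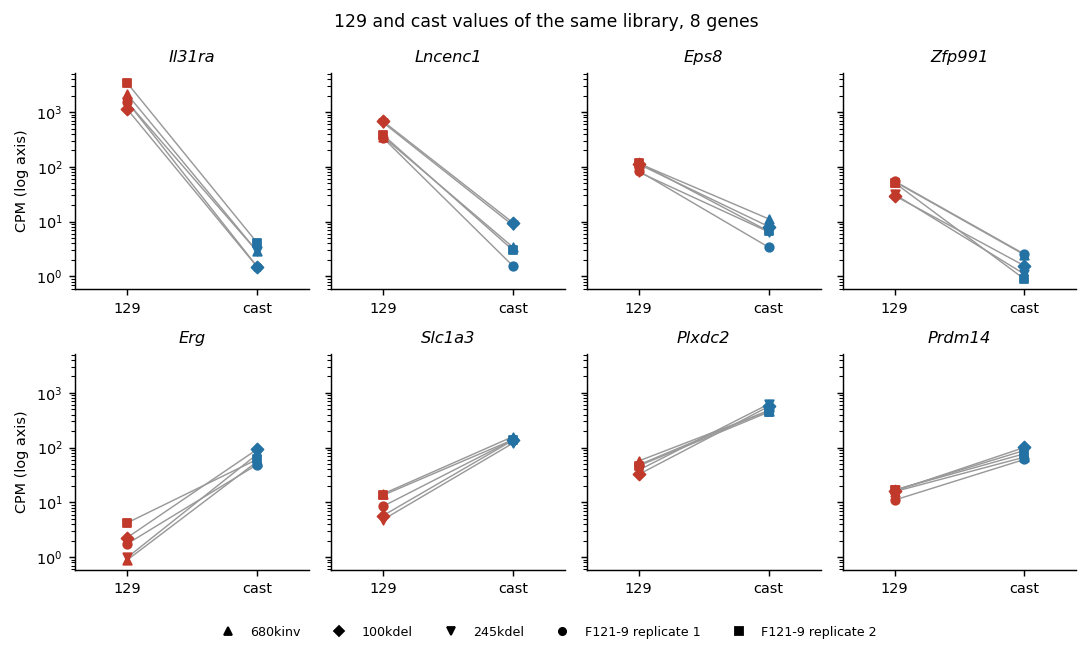
CPM on a log axis of the 129 copy (red, left) and the cast copy (blue, right) for 8 genes, with a line joining the copies of 1 library and a symbol for each of the 5 libraries. In all 8 genes each line slopes the same way, down to cast for Il31ra, Lncenc1, Eps8 and Zfp991. It slopes up to cast for Erg, Slc1a3, Plxdc2 and Prdm14. The rule that named the genes other than Prdm14 asks for the same sign in all 5 libraries.

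Other genes near the top with 129 higher were of many kinds. Eps8, an actin-binding signalling adaptor, averaged 102 ± 18.4 CPM on 129 and 7.17 ± 2.83 CPM on cast (SD, n = 5 each), a difference of 3.89. Zfp991, a zinc finger gene, averaged 44.3 ± 12.5 CPM on 129 and 1.71 ± 0.766 CPM on cast, a difference of 4.67. Lrrc31 differed by 4.41, Sntb1, a syntrophin of the membrane skeleton, by 4.15, Qpct, a glutaminyl cyclase, by 3.71, Tunar by 3.68 and Scn3a, a sodium channel, by 3.65. Rpl37rt differed by 5.73 and is annotated as a pseudogene, and Zfp991 belongs to a family of close copies, so that reads of both could be split with near-identical sequence elsewhere and their values are uncertain. Among these 8 genes the largest adjusted p was that of Scn3a, 7.48e-08, and in each the copies did not overlap.

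Strongly read genes were named among those called at 2-fold or more with the same sign in all 5 libraries. Cdyl2, a chromodomain protein, averaged 410.4 ± 111 CPM on 129 and 113 ± 13.9 CPM on cast (SD, n = 5 each), a difference of 1.83. Adam23, a membrane disintegrin, averaged 429 ± 124 CPM on 129 and 153 ± 58.8 CPM on cast, a difference of 1.53. Ap3b1, a subunit of the AP-3 vesicle coat, differed by 1.05 and Psme4, an activator of the proteasome, by 1.02. The 129 copy of Psme4 had 441, 502, 454, 452 and 457 CPM in 680kinv, 100kdel, 245kdel and F121-9 replicates 1 and 2, with 100kdel the highest, and its cast copy had 224, 226, 227, 228 and 232 CPM. The copies of Psme4 did not overlap, and neither did those of the other 3.

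With cast higher, Plxdc2, a membrane protein with a plexin repeat, stood out for its level. Its 129 copy had 57.0, 32.4, 38.8, 48.4 and 46.5 CPM and its cast copy 467, 564, 623, 481 and 446 CPM, a difference of -3.54 (SE 0.12, adjusted p = 3.42e-11) with no overlap. Agpat4, an acyltransferase of phospholipid synthesis, averaged 10.8 ± 4.83 CPM on 129 and 117 ± 28.1 CPM on cast (SD, n = 5 each). Ion channel genes were among the rest: Ano1, a chloride channel, differed by -3.79 and Gabrb2, a subunit of the GABA-A receptor, by -3.64. Pgpep1l (-3.99), Agbl1 (-3.55), Tub (-3.49) and Thsd4 (-3.42) complete the 10 named. Tub and Agbl1 were read at different levels in different libraries, with the same sign in each, as the naming rule requires. Tub had 12.03, 55.9, 48.6, 10.1 and 14.1 CPM on cast, high in 100kdel and 245kdel and low in 680kinv and F121-9, and no more than 3.65 CPM on 129 in any library.

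Among strongly read genes with cast higher were Cachd1, a calcium channel modulator, at 92.3 ± 9.03 CPM on 129 and 386 ± 76.1 CPM on cast (SD, n = 5 each), Baz2b, a bromodomain protein, at 328 ± 37.3 CPM on 129 and 722 ± 32.6 CPM on cast, and Ankrd10, at 151 ± 22.8 CPM on 129 and 392.5 ± 87.6 CPM on cast. Pvt1, the long noncoding gene that lies beside Myc, had 417, 221, 185, 272 and 364 CPM on 129 and 815, 541, 509, 604 and 769 CPM on cast in 680kinv, 100kdel, 245kdel and F121-9 replicates 1 and 2, a difference of -1.19 (SE 0.05, adjusted p = 3.27e-10). Myc itself was barely read, at 0.395, 1.46, 0.887, 0.662 and 0.429 CPM on 129 and 1.10, 1.88, 1.65, 1.68 and 1.03 CPM on cast, and also passed with cast higher (-0.95, SE 0.35, adjusted p = 0.0424).

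A few genes were read from 1 copy only at this depth. No cast read was found in any of the 5 libraries for Kirrel2, an adhesion protein gene with 192 reads on 129, and for Cpb2, a carboxypeptidase gene with 134 reads on 129. With a floor of 3 reads per library, the 129 copy was at least 10.6-fold higher at Kirrel2 and at least 10.1-fold higher at Cpb2. No 129 read was found for Ccl9, a chemokine gene with 223 reads on cast, which makes 129 at least 14.9-fold lower. The other 5 genes with an empty copy were Mir703, Mir682 and Snora81 on the cast side and Rasl2-9 and Tyms-ps on the 129 side. These are short RNA genes or close copies of other genes, and their values are uncertain. At least 90% of the CPM came from 129 in every library for 47 genes and from cast for 19. Mir6236, a line of small RNA on chromosome 9, had 0.889, 0.234, 0.394, 1.09 and 1.23 CPM on 129 and 1781, 1219, 1434, 1992 and 4862 CPM on cast, the widest difference of all (-11.34, SE 0.15). It was named after its values were seen, and its line spans only 0.123 kb, so its values are uncertain as well.

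Genes known to be imprinted were not read from a single copy as a group. Whether each of them is imprinted in these stem cells was not tested. Of 18 tested genes known to be read from the father's copy, 10 passed, 3 with 129 higher and 7 with cast higher, and 3 reached 2-fold. Of 12 tested genes read from the mother's copy, 5 passed, 1 with 129 higher and 4 with cast higher, and 4 reached 2-fold. Over all tested genes 42.2% passed and 12.4% passed at 2-fold. Which strain was the mother is not given in the sources used here. The median difference was -0.23 for the paternal list and -0.08 for the maternal list, against -0.02 for all genes.

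The clearest imprinted group was the noncoding RNA cluster of chromosome 12, with cast higher. Rian had 92.9, 25.01, 49.2, 68.6 and 48.6 CPM on 129 and 349.9, 186, 269.7, 356 and 243 CPM on cast, in 680kinv, 100kdel, 245kdel and F121-9 replicates 1 and 2, a difference of -2.39 (SE 0.09, adjusted p = 9.22e-11). Meg3 had 34.4, 8.71, 15.9, 29.6 and 20.2 CPM on 129 and 115, 77.1, 94.8, 130.1 and 98.1 CPM on cast, a difference of -2.37 (SE 0.14, adjusted p = 5.08e-09). Mirg differed by -2.12 (SE 0.13, adjusted p = 8.69e-09). In all 3 genes the copies did not overlap, yet the 129 copy was still read: its share of Rian CPM ran from 11.9% to 21.0% over the libraries and its share of Meg3 CPM from 10.1% to 23.0%.

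Members of 1 list went in opposite directions. Plagl1, a zinc finger gene read from the father's copy, had 63.2, 131, 115, 98.4 and 86.0 CPM on 129 and 21.5, 40.8, 38.2, 24.0 and 22.2 CPM on cast, a difference of 1.76 (SE 0.08, adjusted p = 2.6e-10), and Sfmbt2, a Polycomb group gene of the same list, differed by 0.79 (SE 0.08, adjusted p = 1.33e-06). In the same paternal list Slc38a4, an amino acid transporter, differed by -0.76 (SE 0.07, adjusted p = 7.83e-07), Peg10 by -1.31 (SE 0.22, adjusted p = 0.000252) and Peg3 by -0.62 (SE 0.13, adjusted p = 0.00102). Usp29, which lies beside Peg3, also passed (-1.29), with cast higher in 4 of 5 libraries. Among maternal genes Kcnq1, a potassium channel, differed by 2.29 (SE 0.31, adjusted p = 3.74e-05), although at low level, 5.27 ± 2.49 CPM on 129 and 1.04 ± 0.678 CPM on cast (SD, n = 5 each). Snrpn was close to even, at 85.5, 71.1, 70.8, 98.6 and 69.2 CPM on 129 and 83.8, 53.2, 46.4, 84.7 and 61.0 CPM on cast, a difference of 0.29 (SE 0.07, adjusted p = 0.00501). Igf2r did not pass, with 35.2 ± 5.09 CPM on 129 and 37.0 ± 6.54 CPM on cast (-0.06, SE 0.07, adjusted p = 0.495).

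**Figure D3:**
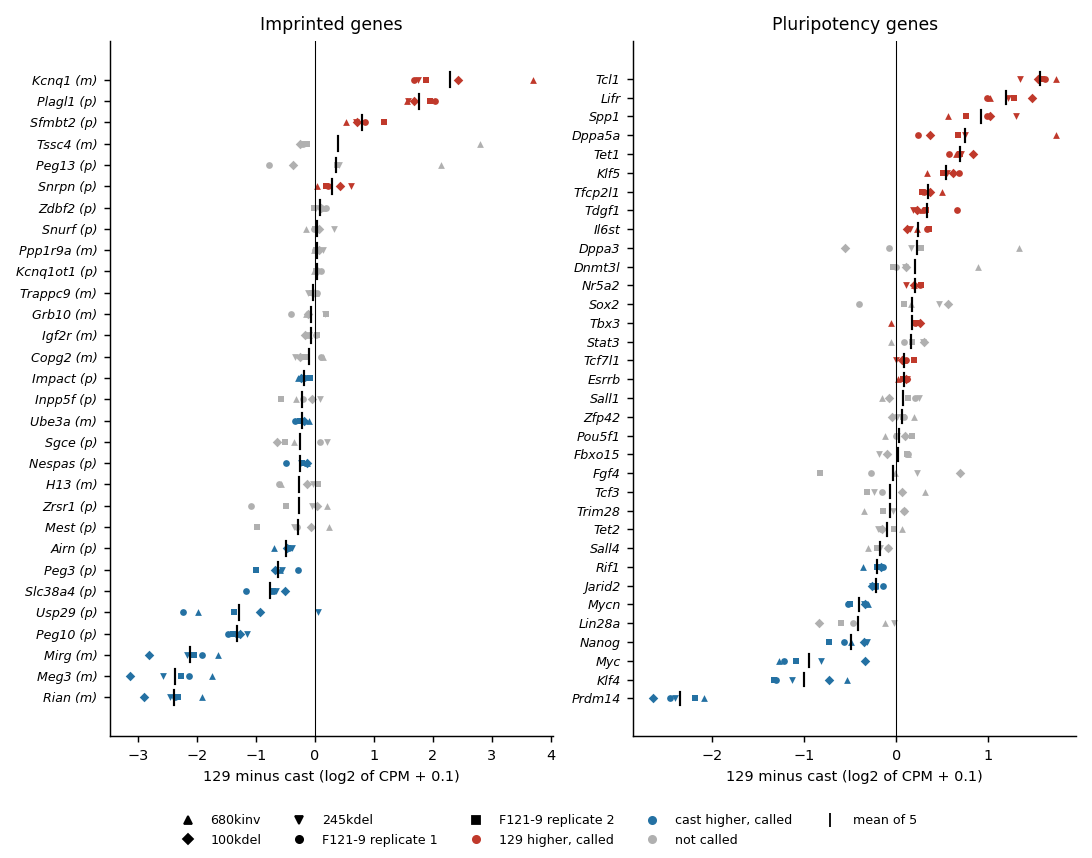
Difference of 129 minus cast (log2 of CPM + 0.1) in each of 5 libraries, 1 symbol per library and a bar at their mean, for the 30 tested imprinted genes (left; p, read from the father's copy, m, from the mother's) and the 34 tested pluripotency genes (right). Rian, Meg3, Mirg and Prdm14 lie far to the cast side in every library, Plagl1, Kcnq1, Tcl1 and Lifr to the 129 side, and Pou5f1 and Igf2r straddle 0.

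Genes of the pluripotency network, which keeps stem cells undifferentiated, had 20 of 34 tested members called (58.8%, against 42.2% of all genes), 13 with 129 higher and 7 with cast higher. They were read at a median of 48.8 CPM, against 14.1 CPM for all genes, and among genes of 22.7 to 58.0 CPM 47.6% were called. At 2-fold or more 4 passed. The largest difference was at Prdm14, a transcriptional regulator of the naive state and of germ cells. Prdm14 had 15.7, 16.1, 16.7, 11.01 and 16.9 CPM on 129 and 67.1, 101, 88.9, 60.9 and 77.3 CPM on cast, a difference of -2.36 (SE 0.08, adjusted p = 4.9e-11). No 129 value reached any cast value.

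Among its receptor and signalling genes 129 was higher at Lifr, Il6st and Tcl1. Lifr, which encodes the subunit that pairs with gp130 to bind LIF, had 193, 127, 114, 215 and 181 CPM on 129 and 95.2, 45.5, 49.5, 108 and 74.3 CPM on cast, a difference of 1.195 (SE 0.06, adjusted p = 2.21e-09) with no overlap. Tcl1, a co-activator of the kinase Akt, differed by 1.56 (SE 0.10, adjusted p = 1.45e-08). Tet1, which oxidises methylated cytosine, was read at 724 ± 262 CPM on 129 and 457 ± 188 CPM on cast (SD, n = 5 each), a difference of 0.69 (SE 0.03, adjusted p = 1.02e-09). Its ranges overlapped between libraries, but 129 was higher within each of the 5.

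Among the core factors, Pou5f1, the gene of Oct4, did not pass: its 129 copy had 11.95, 24.96, 22.9, 13.5 and 12.7 CPM and its cast copy 13.1, 23.4, 22.7, 13.5 and 11.3 CPM, a difference of 0.03 (SE 0.10, adjusted p = 0.842). Without F121-9 replicate 2 that value was -0.01. Nanog had 121, 229, 214, 131 and 101 CPM on 129 and 170.4, 292, 268, 194 and 167 CPM on cast, with cast higher in 5 of 5 libraries (-0.49, SE 0.05, adjusted p = 3.4e-06). Klf4 differed by -1.01 (SE 0.15, adjusted p = 6.75e-05), while its relative Klf5 differed by 0.54 and Tfcp2l1, another factor of the naive network, by 0.35. Esrrb passed with a small difference of 0.09 (SE 0.03, adjusted p = 0.0144), which was lost without 100kdel (adjusted p = 0.0542) or without 245kdel (0.0564).

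Of 48 tested DNA replication genes 17 passed (35.4%, against 42.2% of all genes), 8 with 129 higher and 9 with cast higher, and 1 reached 2-fold, Rpa3, a subunit of the single-strand binding complex (-1.46). That is 2.08% of the list at 2-fold, against 12.4% of all genes and 6.32% of genes at 22.7 to 58.0 CPM, where the list's median of 34.4 CPM lies. Prim2, the large primase subunit, had 271, 229, 211, 219 and 263 CPM on 129 and 141, 131, 124, 121 and 127 CPM on cast, a difference of 0.88 (SE 0.05, adjusted p = 1.38e-09). Orc5, a subunit of the origin recognition complex, differed by 0.77 (SE 0.05, adjusted p = 5.56e-09) and Cdc6, which loads the helicase with that complex, by 0.52 (SE 0.07, adjusted p = 3.87e-05). Ticrr, a factor that fires origins, had cast higher (-0.64, SE 0.06, adjusted p = 9.28e-07). The copies of Prim2, Orc5, Cdc6 and Ticrr did not overlap. Among the other members, Prim1 (0.42), the sliding clamp Pcna (0.46) and the helicase subunit Mcm5 (0.18) had 129 higher, and the kinase Cdc7 (-0.54), the polymerase delta subunits Pold2 (-0.63) and Pold3 (-0.28) and the clamp loader subunit Rfc4 (-0.36) had cast higher.

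Zinc finger genes named Zfp, most of them members of a large family that silences transposons, were called at a rate near that of all genes (134 of 310, 43.2%) with 88 (28.4%) higher on 129 and 46 (14.8%) higher on cast, against 20.9% and 21.3% of all genes. At 2-fold or more 37 had 129 higher and 10 had cast higher. Zfp808 averaged 85.2 ± 10.5 CPM on 129 and 17.3 ± 1.53 CPM on cast (SD, n = 5 each), and Zfp960 averaged 51.9 ± 17.0 CPM on 129 and 9.25 ± 3.005 CPM on cast. Of 72 cytosolic ribosomal protein genes 24 (33.3%) had 129 higher and 10 (13.9%) had cast higher, and of 15 snoRNA and microRNA host genes 7 (46.7%) had 129 higher and 1 (6.67%) had cast higher, beside the same shares of all genes. Rps15 differed by 2.42 (SE 0.22), whereas Rps24 (0.57, SE 0.05) and Rpl4 (0.68, SE 0.06) differed less. Rpl32l, at 4.43, is annotated as a pseudogene. Zinc finger and ribosomal protein genes have close copies elsewhere in the genome, so their reads are uncertain. Of 66 mitochondrial ribosomal protein genes 14 passed (21.2%, against 42.2% of all genes), 6 with 129 higher and 8 with cast higher, and a median level of 9.56 CPM.

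Detoxifying enzymes were read as 3 families, to be set against the 42.2% of all genes that passed, 20.9% with 129 higher and 21.3% with cast higher; the families were not tested against each other. Of 15 tested cytochrome P450 genes 9 passed (60%), 8 with 129 higher and 1 with cast higher, among them Cyp20a1 (1.19, SE 0.09), Cyp2b23 (2.19, SE 0.17) and Cyp3a13 (4.17, SE 0.35). Of 7 glutathione transferase genes 6 passed (85.7%), 1 with 129 higher, Gsta3 (1.83, SE 0.18), and 5 with cast higher, such as Gsto1 (-1.08, SE 0.16). Of 14 aldehyde and alcohol dehydrogenase genes 8 passed (57.1%), 2 with 129 higher and 6 with cast higher, and Aldh9a1, at 9.89 ± 1.30 CPM on 129 and 35.9 ± 6.77 CPM on cast (SD, n = 5 each), had the smallest p. These lists are short, and most of their members were below the level tested: 90 of 105 cytochrome P450 genes were. Cytochrome P450 and glutathione transferase genes also have close copies in the genome, so their reads are uncertain.

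Of 31 interferon and innate immune genes 17 were below the level tested and 14 were tested. Of these 5 passed (35.7%, against 42.2% of all genes), 3 with 129 higher and 2 with cast higher. Parp14 had cast higher (-2.05). At Ddx58, the gene of the RNA sensor RIG-I (1.94, SE 0.23), Ifitm2, an antiviral membrane protein gene (3.04), and Eif2ak2, the gene of the kinase PKR (0.21), 129 was higher. A separate list of 50 genes of interferon-inducible families had 2 tested, the adjacent Oas1a and Oas1g, which make sensors of double-stranded RNA. Both passed, in opposite directions: Oas1a with 16.7 ± 4.17 CPM on 129 and 42.5 ± 12.4 CPM on cast, and Oas1g with 7.89 ± 1.48 CPM on 129 and 4.02 ± 0.721 CPM on cast (SD, n = 5 each). Oas1 genes are close copies and their reads are uncertain.

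Histone, MHC and chemosensory receptor genes were mostly below the level tested. The share of all tested genes that passed, for comparison, was 42.2%. Of 69 histone genes 10 were tested and 3 passed (30.0%), Hist1h2bb (1.76) and Hist1h4b (1.18) with 129 higher and Hist1h1e (-0.91) with cast higher. The call of Hist1h4b was lost without 680kinv (adjusted p = 0.0588), without 100kdel (0.0521) or without F121-9 replicate 2 (0.0542). Of 44 MHC genes named H2, 2 were tested and 1 passed, H2-DMa with cast higher (-0.67). Of 1492 chemosensory receptor genes 4 were tested and 3 passed, 1 with 129 higher and 2 with cast higher. Among symbols not yet tied to a function, 91 of 164 Gm genes passed (55.5%), 57 with 129 higher and 34 with cast higher, and 188 of 379 Rik genes (49.6%), 121 with 129 higher and 67 with cast higher. In both of these groups a larger share passed at 2-fold, 35.4% for Gm and 27.2% for Rik genes, than the 12.4% of all genes, at a median level of 4.60 and 4.24 CPM.

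**Figure D4:**
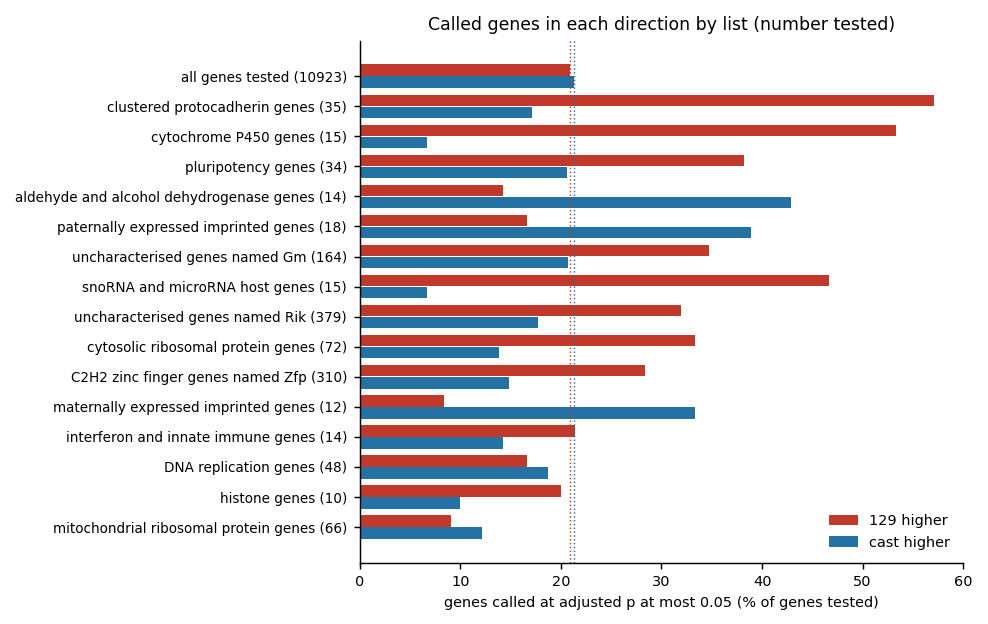
Percent of tested genes called at an adjusted p of 0.05 with 129 higher (red, upper bar) and with cast higher (blue, lower bar) in lists with at least 10 tested genes, number tested in brackets, with dotted lines at the values of all 10923 genes, 20.9% and 21.3%. Protocadherin (57.1%, from lines that share reads), cytochrome P450, host RNA, cytosolic ribosomal protein and Zfp genes show longer 129 bars, and mitochondrial ribosomal protein, dehydrogenase and imprinted genes longer cast bars.

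How often a gene was called depended on how well it was read. With genes put in 5 equal bins from the lowest to the highest level, the share called was 29.1%, 36.7%, 42.4%, 47.6% and 55.4%, while the share called at 2-fold or more was 23.4%, 16.8%, 10.7%, 6.32% and 4.76%. The median SE was 0.33 on the log2 scale in the lowest bin and 0.05 in the highest. By genomic span, again in 5 bins, the share called was 26.2% for the shortest genes and 61.1% for the longest, at a median level of 4.31 CPM for the shortest and 37.0 CPM for the longest. Long noncoding genes passed more often than protein-coding genes, 205 of 372 (55.1%) against 4293 of 10268 (41.8%), and at 2-fold or more 33.3% of long noncoding against 11.4% of coding genes passed, at a median level of 4.08 CPM for long noncoding and 15.3 CPM for coding genes. Over chromosomes the share called ran from 35.7% on chromosome 19 to 52.8% on chromosome 13.

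Called genes tended to lie beside genes called the same way. The next tested gene along the chromosome was also called with 129 higher for 30.4% of genes called with 129 higher, against 20.9% of all tested genes, and with cast higher for 29.0% of genes called with cast higher, against 21.3%. Of the tested lines 424 (3.88%) shared bases with another on the same strand, and such genes share reads. Where lines did not overlap the shares were 29.1% for 129, against 21.0%, and 28.6% for cast, against 21.6%. Where neighbours were at least 50 kb apart they were 28.2% for 129, against 24.0%, and 28.5% for cast, against 24.8%. At least 3 neighbours were called together in 150 groups with 129 higher and in 141 with cast higher. With so many genes called, scattered calls would also form such groups, and the number to be expected was not worked out. Some groups hold lines that share reads.

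Of 8 neighbours with 129 higher on chromosome 2, between 149830783 and 150485063, 4 were Zfp genes: Syndig1, Zfp120, Gm14139, Zfp937, Gm14124, 3300002I08Rik, Zfp442 and Zfp345. Their median difference was 1.94. Syndig1, a synapse protein gene at the edge, had 98.2, 62.5, 81.2, 121 and 93.1 CPM on 129 and 20.6, 7.01, 14.4, 17.8 and 14.4 CPM on cast (2.66, SE 0.10, adjusted p = 9.22e-11). On chromosome 11 between 74673949 and 75164448, 8 genes including Pafah1b1, Tsr1, Srr and Smg6 had cast higher, with a median of -0.37. Here Snord91a lies within Tsr1 and shares its reads, and 2 calls were lost when single libraries were left out. For Mettl16 the adjusted p was 0.0559 without F121-9 replicate 1 and 0.0549 without 245kdel. For Mnt it was 0.107 without 100kdel, 0.132 without 245kdel, 0.104 without F121-9 replicate 1 and 0.112 without F121-9 replicate 2. Of 35 tested clustered protocadherin genes, cell adhesion genes of chromosome 18, 26 were called (74.3%, against 42.2% of all genes), 20 with 129 higher and 6 with cast higher. The 6 were alpha genes, all past 2-fold, and 5 of them, from Pcdha9 to Pcdhac1, were neighbours with a median of -1.04. The 20 were neighbouring gamma genes with a median of 0.24. The lines overlap and share reads, so these are not separate measurements. Of the gamma genes 16 lost the call without 245kdel, 14 without F121-9 replicate 2, 13 without F121-9 replicate 1, 6 without 100kdel and 1 without 680kinv.

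The differences were then looked up in the other 11 libraries, which took no part in choosing the genes. By the file headers their reads were assigned in the same way, so a bias of that step would recur in them. The share with the same sign was taken for called genes only, not for all tested genes. The same sign as in the 5 was seen for 81.5% to 93.2% of the 4612 called genes and for 87.1% to 96.1% of the 1354 called at 2-fold. Chromosomes 1, 3, 7, 8 and 12 were unbalanced in some of these libraries. On the other autosomes 964 genes were called at 2-fold, and 649 of them (67.3%) had the same sign in all 16 libraries. The median difference of the 530 with 129 higher was 1.46 to 1.65 in the 11 libraries, and that of the 434 with cast higher was -1.56 to -1.35. Il31ra differed by 6.33 to 10.38 in the 11 libraries, Lncenc1 by 6.23 to 9.03, Erg by -6.34 to -3.88 and Plxdc2 by -3.62 to -2.45. Prdm14 lies on chromosome 1, whose median was far to the 129 side in 4k.b.c and a.del, and had cast higher in 9 of 11. Meg3, Rian and Mirg lie on chromosome 12, whose median was -7.15 in 4k.b.c and -7.44 in a.del. In those libraries neither copy of the 3 genes exceeded 0.581 CPM, so their sign there says nothing, and cast was higher in each of the other 9. Some named genes did not keep their sign: Cyp2b23 differed by -1.96 to 2.42 in the 11 libraries, against 2.19 in the 5, with 129 higher in 7, and Hist1h2bb by -1.39 to 3.78, against 1.76, with 129 higher in 8. Among imprinted genes Peg10 differed by -3.30 to 0.88, against -1.31, with cast higher in 9, Sfmbt2 differed by 1.23 to 2.98 in the 11 libraries, against 0.79 in the 5, and Slc38a4 by -3.93 to -0.72, against -0.76.

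**Figure D5:**
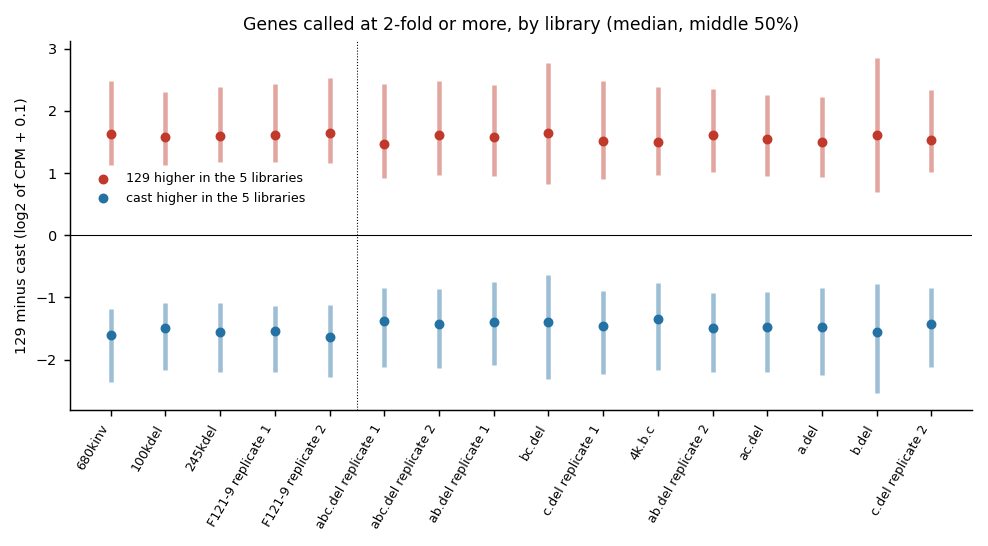
Median (point) and middle 50% (line) of the 129 minus cast difference (log2 of CPM + 0.1) in each of 16 libraries, for 530 genes called at 2-fold or more with 129 higher (red) and 434 with cast higher (blue) outside chromosomes 1, 3, 7, 8 and 12; the dotted line separates the 5 libraries in which the genes were chosen from the other 11. The medians stay between 1.46 and 1.65 and between -1.56 and -1.35 in the other 11.

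Whether the difference between copies itself differed between the edited libraries and F121-9 was tested with limma on the per-library differences, 680kinv, 100kdel and 245kdel against the F121-9 replicates. No gene passed (0 of 10923, 0.0%), 623 had an unadjusted p under 0.05 (5.70%), and the smallest adjusted p was 0.181. In simulated data this comparison recovered 49% of made log2 differences of 1 and 73% of those of 2. Differences of that size could therefore be missed. edgeR called 0 genes and DESeq2 called 3: Ftl1, Mthfd1l and Gria1. Ftl1, the light chain of the iron store ferritin, had the smallest p. Its 129 copy had 22.6, 33.9 and 27.4 CPM in 680kinv, 100kdel and 245kdel and 25.8 and 30.0 CPM in F121-9, while its cast copy had 12.1, 18.0 and 19.5 CPM in the edited libraries and 4.83 and 7.32 CPM in F121-9. The 129 minus cast difference, edited minus F121-9, was -1.45 (SE 0.22, adjusted p = 0.181 with limma). Ftl1 has close copies elsewhere in the genome and is uncertain. Mthfd1l, an enzyme of mitochondrial folate metabolism, had a difference of -0.20, -0.14 and 0.00 in the edited libraries and of -0.52 and -0.57 in F121-9. Smc1b, the meiotic cohesin subunit, had 0.92, 0.42 and 0.30 in the edited libraries and 2.04 and 1.33 in F121-9. Gria1, a glutamate receptor gene, was read at a low level: 0.691, 3.80 and 14.1 CPM on 129 in the edited libraries and 1.52 and 2.88 CPM in F121-9, and 0.0549, 0 and 0 CPM on cast in the edited libraries and 0.948 and 1.03 CPM in F121-9. By their names the edited libraries carry different edits, and 100kdel and 245kdel also belong to the second of the runs of sample numbers, whose meaning the labels do not give. Without 680kinv, which is of the same run as F121-9, 95 genes passed in limma, Ftl1, Mthfd1l and Smc1b among them (adjusted p of 0.00412, 0.00382 and 0.00807). With the runs compared instead 85 passed, but Ftl1, Mthfd1l and Smc1b were not among these. Gria1 passed in both. As 680kinv is the only edited library of the first run, the edits and the run cannot be told apart.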

How the data were processed

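Nascent RNA was measured by Bru-seq. Per the labels' protocols, 300 ng of RNA from cells given bromouridine was captured and sequenced strand-specifically from 1 end, 100 bp a read. Per the submitters' processing notes, Bowtie2, bedtools and mm10 were used, with no versions stated. Reads were assigned, per the file headers, to the 129 or cast copy at SNPs and counted per gene line. The deposited values are CPM (counts per 1000000 counts over all lines), since each column sums to 1000000 with no division by length. Dividing by the value of 1 read gave whole reads for 100% of values within 0.01. The authors' deposited CPM were used as log2(CPM + 0.1).

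The widest line per symbol was kept, with a mean of at least 1 CPM. limma 3.58.1 (R 4.3.3; trended variance, two-sided, Benjamini-Hochberg over 10923 genes) tested 129 minus cast with library as a block, because both copies of a library come from the same cells. An exact sign-flip test over 5 pairs cannot go below 0.0625, so the spread was shared across genes. edgeR 4.0.16 and DESeq2 1.42.0 on the recovered reads, other pseudocounts, filters and scalings, and leaving out each library were the alternatives. A floor of 3 reads is 0.117 to 0.329 CPM, and such floors cover counting error only.

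Genes were named by rule. Largest differences and highest levels were taken among called genes with the same sign in all 5 libraries, without Gm, Rik, -ps, Mir and Snor symbols. From these came the 10 largest differences in each direction at a mean of at least 10 CPM. From those at 2-fold or more came the 5 with the highest level in each direction. Further rules took up to 4 per list by smallest p and pluripotency genes at 2-fold or more. The rest were the smallest p for the edited libraries and neighbouring groups. Nanog, Pou5f1, Esrrb, Snrpn, Peg3, Igf2r, Il6st, Mir6236, Gria1, Myc, Usp29, Klf5, Tfcp2l1, the genes with an empty copy, and replication and interferon genes given with a difference alone were named after their values were seen. The members and lists were chosen with earlier results of these data known. Results of 2 genes are not reported here. The fits were tested on simulated data, where limma recovered 38% of made 129 minus cast log2 differences of 0.5 and 82% of those of 1. Promoters are from RefSeq (GRCm38.p6). Python 3.11.15 with matplotlib 3.10.9 drew the figures.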

Additional observations from a re-analysis of the deposited data

Results flagged for a closer look

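Of 164 groups of values checked, 7 were marked; a group of 5 with 1 value set apart arises by chance about 1 time in 20. In 6 genes 1 library lay far from the other 4 in its 129 minus cast difference (log2). Sntb1 stood at 5.56 in 680kinv, against 3.46 to 3.96 in the others. Psme4 stood at 1.15 in 100kdel, against 0.98 to 1.00. Ticrr stood at -0.43 in 680kinv, against -0.71 to -0.68. Hist1h2bb stood at 3.51 in F121-9 replicate 2, against 1.06 to 1.65. Vmn2r101, a pheromone receptor gene with close copies, stood at -4.28 in 245kdel, against -2.41 to -1.68. Snhg5 stood at 0.54 in F121-9 replicate 2, against 0.87 to 0.98. For Igf2r the edited libraries averaged -0.12 and F121-9 averaged 0.03, every edited library below 0 and both F121-9 replicates above it, a gap of -0.15 that limma did not call (adjusted p = 0.896).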

How the results depend on the processing

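The number of genes with unequal copies was 4612, and 1884 without the pairing by library (the replicate block). It was 3940 to 4440 when each library was left out in turn, 4512 with edgeR (4467 shared) and 4181 with DESeq2 (4176 shared). For the edited libraries against F121-9 it was 0, against 3 with DESeq2 and 85 with the second run of sample numbers set against the first. Leaving out each library gave 0 to 95, with 95 without 680kinv. Of 3389 values of named genes under these alternatives, 3136 kept their direction and call, 232 lost the call, 16 gained it and 5 changed sign. Those 5 were Pou5f1 at -0.0064 without F121-9 replicate 2 (from -0.0064 to 0.068 as each library was left out) and at -0.0077 in the edited libraries alone, Igf2r at 0.028 in the F121-9 libraries alone, and Esrrb at -0.81 and 1700025G04Rik at 0.18 over all 16 libraries. Esrrb lies on chromosome 12, whose median was -7.15 in 4k.b.c and -7.44 in a.del. Causes were not tested. Genes read at few counts have wide errors, so a small difference in them was not detectable at this depth.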
